A study of Homo sapiens with 3 samples.

Results

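Immediate early genes are those that cells switch on within minutes of a growth factor or stress signal, without first making new protein, and many of them encode transcription factors. Of the 30923 genes in the deposited table, 10 were chosen by their symbols as members of this class: FOS, FOSL1 and FOSL2, which encode FOS subunits of the AP-1 factor, JUN, JUNB and JUND, which encode its JUN subunits, ATF3, EGR1, IER2 and IER3. All 10 are present in the table. The RNA came from QBC-939, a cell line derived from a human bile duct cancer (cholangiocarcinoma), labelled as wild type in genotype in all 3 groups. The groups were cells overexpressing miR-182-5p, cells overexpressing miR-183-5p and cells with a control overexpression labelled NC, with 1 library each. The labels give no dose, time after transfection or serum state, and the levels of the microRNAs were not analysed here. A single cell line and 1 library a group allow no test between conditions, so every value describes these 3 libraries and every interval covers counting error only.

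AP-1 is a pair of basic leucine zipper proteins. JUN proteins pair with each other or with FOS proteins, and FOS proteins bind DNA only as partners of JUN proteins. In epithelial cells the growth factor receptors act through RAS and the MAP kinases on serum response factor (SRF) and its ELK cofactors, which drive FOS and EGR1 transcription. The messenger RNAs of this class are mostly short-lived, and many carry AUUUA elements in the 3' untranslated region (UTR) that bind decay factors. A microRNA lowers a messenger RNA by pairing of its seed, bases 2 to 8 counted from the 5' end, with a site in that region.

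The 2 overexpressed microRNAs are shown here, with the seed in capitals, because their seeds define the sites looked for in the 10 genes. Both come from the minus strand of chromosome 7 (GRCh38.p14, RefSeq), at chr7:129770447-129770470 for miR-182-5p and chr7:129774967-129774988 for miR-183-5p.
miR-182-5p: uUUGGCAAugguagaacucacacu
miR-183-5p: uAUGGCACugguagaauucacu

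A complete seed match (7 bases) was found in the longest annotated 3' UTR of 2 of the 10 genes, 1 for each microRNA. FOSL2 had the only miR-182-5p site, at chr2:28413231-28413237 on the plus strand of GRCh38, and EGR1 had the only miR-183-5p site, at chr5:138468492-138468498 on the plus strand. Both are shown with their flanks, the site in capitals, as the only complete seed matches among the 10 genes.
FOSL2 miR-182-5p site: acaggttgggtTTGCCAAacgcctaatta
EGR1 miR-183-5p site: gtacagtgtctGTGCCATggatttcgttt

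The FOSL2 site is followed by an A and the EGR1 site is not. Among 10847 genes with an annotated 3' UTR and an FPKM (fragments scaled to gene length and library size) that reached 1 in some library, 15.1% held the miR-182-5p site TTGCCAA and 12.2% the miR-183-5p site GTGCCAT. FOSL2, whose 3' UTR of 4864 bases is the longest of the 10, also held 1 further match to bases 2 to 7 of miR-182-5p and 3 such matches for miR-183-5p. FOS, FOSL1, JUN, JUNB, JUND, ATF3, IER2 and IER3 held neither the 7-base sites nor their 6-base cores in the UTR searched.

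Neither gene with a site had a lower level in the library of that microRNA than in NC. Gene spans in parentheses are those in the table, whose coordinates lie on GRCh38. FOSL2 (chr2:28392448-28417312, plus strand) encodes a FOS subunit that is expressed in resting as well as stimulated cells. It had 71.3 CPM (counts scaled to the library total) with miR-182-5p, 66.7 with miR-183-5p and 68.1 in NC, so its level was highest in the library overexpressing the microRNA whose site it holds. Its ratio to NC was 1.05 (1.005 to 1.09) in the miR-182-5p library and 0.980 (0.940 to 1.02) in the miR-183-5p library. Under other scalings of library size the FOSL2 ratio for miR-182-5p was nearer to 1, at 1.006 with TMM and 1.004 with median-of-ratios factors. EGR1 (chr5:138465479-138469303, plus strand), a zinc finger factor that binds GC-rich promoters, had 40.2 CPM with miR-182-5p, 38.9 with miR-183-5p and 36.9 in NC. In the miR-183-5p library, whose microRNA has the site, EGR1 stood at 1.05 times NC (0.996 to 1.11), and in the miR-182-5p library at 1.09 (1.03 to 1.15). Bounds in parentheses after a ratio are exact 95% intervals. Repeat libraries of 1 group usually differ by more than such intervals allow, and that spread was not measured here.

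All 10 genes were expressed in all 3 libraries, and per length they spanned a wide range of levels. JUN was the highest, with an FPKM of 48.2 with miR-182-5p, 47.1 with miR-183-5p and 52.7 in NC. In the NC library that level exceeded those of 95.7% of the 12342 genes at an FPKM of 1 or more. ATF3 (chr1:212565334-212620772, plus strand), a stress-induced factor that can repress its targets, was the lowest, with an FPKM of 2.19 with miR-182-5p, 2.42 with miR-183-5p and 2.40 in NC. FOS (chr14:75278826-75282230, plus strand), the best-known serum-induced gene, was the second lowest, with an FPKM of 4.33 with miR-182-5p, 4.29 with miR-183-5p and 4.64 in NC. Thus the JUN messenger was present at about an order of magnitude above that of FOS in each library, on the FPKM scale.

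The order of levels was nearly the same in all 3 libraries: JUN first, then JUNB, IER3 and IER2, then JUND, FOSL1, EGR1, FOSL2, FOS and ATF3. The exception was the NC library, where IER3 was second with an FPKM of 24.0 (23.1 to 25.0) and JUNB next with 22.3 (21.6 to 23.1), values whose 95% Poisson intervals overlap. In the miR-182-5p library JUNB had 27.0 (26.2 to 27.9) and IER3 24.5 (23.6 to 25.5), which do not overlap. Other neighbours with overlapping intervals were IER3 and IER2, and JUND and FOSL1, both in the miR-183-5p library. These intervals hold counting error alone, so genes adjacent in the order cannot be said to differ beyond biological spread.

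**Figure D1:**
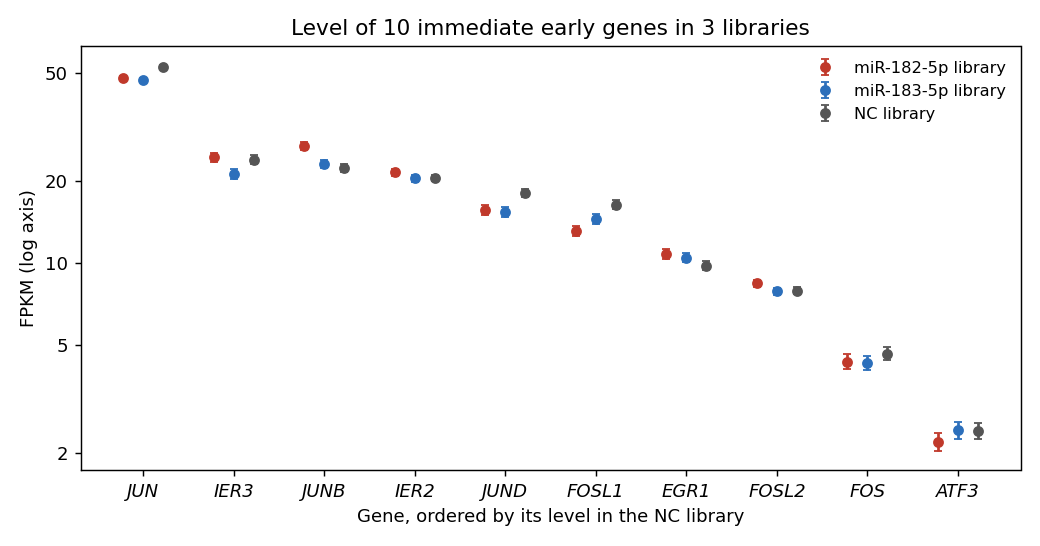
FPKM (log axis) of each of the 10 genes in the miR-182-5p, the miR-183-5p and the NC library, with 95% Poisson intervals of the counts, ordered by the NC level. The whole span, from an FPKM of 2.40 for ATF3 to 52.7 for JUN in the NC library, is much larger than that between libraries for any 1 gene. Neighbours in the order, such as IER3 at 24.0 and JUNB at 22.3 in the NC library, lie much closer.

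The 3 libraries held 61709874 counts with miR-182-5p, 67427313 with miR-183-5p and 64516706 in NC. Mitochondrially encoded genes took 16.7%, 16.1% and 13.5% of them in the same order of libraries, and ratios computed without them are given with the counts of called genes. All 8 epithelial and bile duct markers reached an FPKM of 1 in each library and summed to between 5423 and 6546 CPM. In NC, KRT8 and KRT18 had 3423 and 2099 CPM of that sum. KRT7, which overlaps KRT86 on its strand, only just passed in NC, at an FPKM of 1.03. None of 4 hepatocyte markers reached an FPKM of 1, and they summed to at most 1.005 CPM. Of 8 mesenchymal, immune and endothelial markers, 1 or 2 reached it; the list summed to 30.04 CPM with miR-182-5p, 21.2 with miR-183-5p and 20.3 in NC, and COL1A2 was at 0 or not listed in all 3. As the libraries are bulk RNA, fewer cells expressing a gene and less RNA per cell cannot be told apart.

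Among the JUN subunits, JUNB was higher and JUN and JUND lower with miR-182-5p than in NC. JUN (chr1:58780791-58784047, minus strand), the archetypal AP-1 activator, had 186 CPM with miR-182-5p, 182 with miR-183-5p and 206 in NC. It was at 0.902 times NC (0.879 to 0.924) in the miR-182-5p library and at 0.882 (0.860 to 0.904) in the miR-183-5p library, so NC had the highest level of the 3. JUND (chr19:18279694-18281622, minus strand), a subunit that is expressed at steady levels in many cells, had 35.8 CPM with miR-182-5p, 35.2 with miR-183-5p and 42.0 in NC. Its ratios to NC were 0.852 (0.805 to 0.902) for miR-182-5p and 0.837 (0.792 to 0.885) for miR-183-5p, again with NC highest. JUNB (chr19:12791486-12793315, plus strand), a weaker activator that can oppose JUN, had 58.6 CPM with miR-182-5p, 50.4 with miR-183-5p and 49.1 in NC. Its ratio was 1.19 (1.14 to 1.25) for miR-182-5p and 1.03 (0.977 to 1.08) for miR-183-5p, so the miR-182-5p library stood apart from the other two. The 2 comparisons with NC share the NC library, and a high or low NC value moves both ratios together.

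Among the FOS subunits, FOSL1 had the widest range of the 10 genes. FOSL1 (chr11:65892049-65900419, minus strand) encodes FRA-1, the FOS subunit most tied to invasive behaviour of carcinoma cells, and had 29.4 CPM with miR-182-5p, 32.6 with miR-183-5p and 37.3 in NC. Its ratio to NC was 0.788 (0.741 to 0.838) in the miR-182-5p library and 0.873 (0.823 to 0.925) in the miR-183-5p library. Both microRNA libraries were thus below NC, the miR-182-5p library the more so, at 0.902 times the miR-183-5p library (0.848 to 0.961). FOS had 16.4 CPM with miR-182-5p, 16.2 with miR-183-5p and 17.8 in NC, with ratios to NC of 0.921 (0.845 to 1.003) and 0.912 (0.839 to 0.991) for miR-182-5p and miR-183-5p. The highest FOSL1 level was 1.27 times the lowest. A wider range than this was found in 39.4% of 13400 genes that reached an FPKM of 1 somewhere and had counts in all 3 libraries, so it was not unusual among the genes measured.

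The make-up of the AP-1 messenger pool followed from these levels. FOSL1 made up 50.8% of the summed FPKM of the 3 FOS genes with miR-182-5p, 54.5% with miR-183-5p and 56.7% in NC, and FOSL2 made up 32.5%, 29.4% and 27.3% in the same order. The FOS gene itself held between 16.0% and 16.7%. JUN made up 53.0% of the summed FPKM of the JUN genes with miR-182-5p, 55.0% with miR-183-5p and 56.6% in NC, and JUNB 29.8%, 27.1% and 24.0%. FOSL1 and JUN were therefore the most abundant messengers of their families in every library. The JUN genes together had 3.51 times the summed FPKM of the FOS genes in the miR-182-5p library and 3.21 times in both the miR-183-5p and the NC library.

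**Figure D2:**
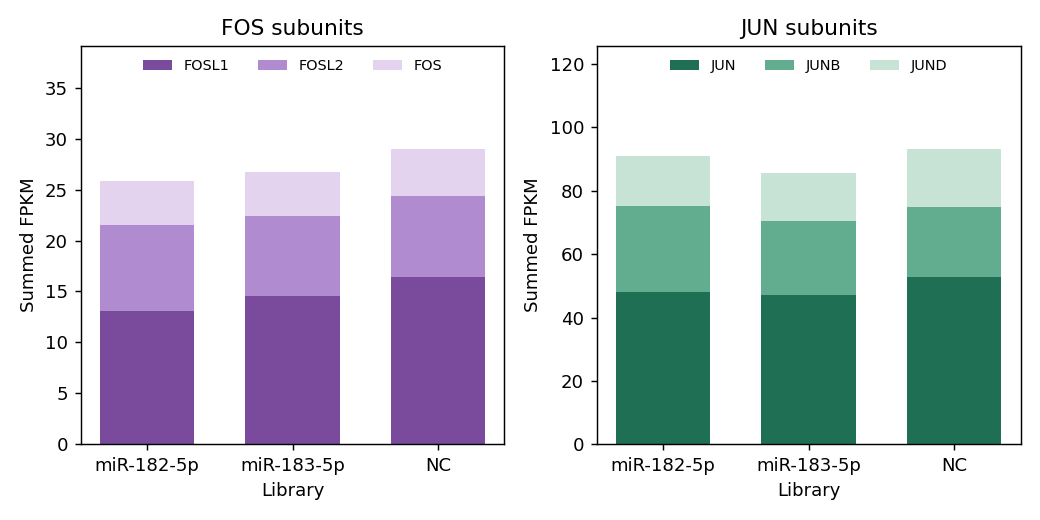
Summed FPKM of the 3 FOS subunit genes (left) and the 3 JUN subunit genes (right) in the miR-182-5p, the miR-183-5p and the NC library, split by gene. FOSL1 took 50.8%, 54.5% and 56.7% of the FOS sum and JUNB 29.8%, 27.1% and 24.0% of the JUN sum, in that order of libraries.

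IER2 and IER3 were close to NC with miR-182-5p, and IER3 was lower than NC in the miR-183-5p library. ATF3 had 10.5 CPM with miR-182-5p, 11.6 with miR-183-5p and 11.7 in NC, with ratios to NC of 0.9003 (0.809 to 1.001) and 0.990 (0.894 to 1.095) for miR-182-5p and miR-183-5p. Its 651 to 782 counts gave it the widest intervals of the 10 genes. IER2 (chr19:13150411-13154911, plus strand), a nuclear protein induced by growth factors, had 78.9 CPM with miR-182-5p, 74.9 with miR-183-5p and 76.2 in NC, the narrowest range of the 10, with a highest level 1.05 times the lowest. Its ratios to NC were 1.04 (0.995 to 1.08) for miR-182-5p and 0.983 (0.945 to 1.02) for miR-183-5p, both intervals including 1. IER3 (chr6:30743199-30744548, minus strand), which is also induced by NF-kB and bears on cell survival, had 39.3 CPM with miR-182-5p, 34.0 with miR-183-5p and 39.0 in NC. It was at 1.01 times NC (0.953 to 1.07) in the miR-182-5p library but at 0.873 (0.825 to 0.925) in the miR-183-5p library. IER3 and FOSL2 overlap other genes in the table, but those genes had between 0 and 25 counts in each library, against at least 2295 for the members. The other 8 genes overlap none of the genes in the table.

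**Figure D3:**
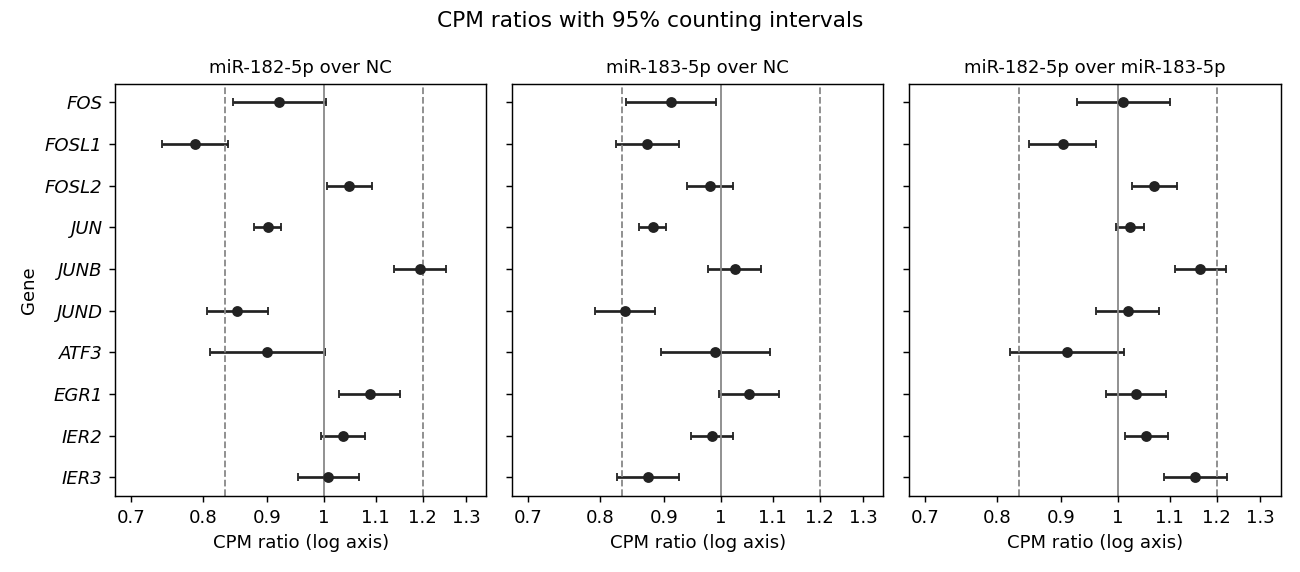
CPM ratios (log axis) with exact 95% counting intervals for the 10 genes in 3 comparisons, with solid lines at 1 and dashed lines at 1.2-fold in either direction. FOSL1 at 0.788 in the miR-182-5p library over NC is the only point past a dashed line, and JUNB at 1.19 lies just inside one.

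A difference was counted when the CPM ratio was at least 1.2-fold, among genes whose FPKM reached 1 in either library compared; all 10 genes met that filter in every comparison. In the miR-182-5p library against NC, 1 of the 10 genes was lower by this rule and 0 were higher, while 20.5% of 13267 genes were lower and 24.3% higher. The 1 gene was FOSL1. JUNB at 1.19 and JUND at 0.852 lay just inside the limits. JUNB passed the upper limit at 1.24 when mitochondrially encoded genes were left out of the library size. It also passed at 1.21 as a ratio of FPKM plus 0.1. JUND passed the lower limit at 0.818 with edgeR's TMM scaling. In the miR-183-5p library against NC, 0 genes were lower and 0 higher, while 11.3% of 12926 genes were lower and 11.5% higher. Between miR-182-5p and miR-183-5p the counts were also 0 and 0, where 9.7% of 13308 genes were lower and 18.4% higher. At 1.5-fold none of the 10 genes passed in either direction in the 3 comparisons, against 3.37% of genes lower and 10.1% higher for miR-182-5p over NC, 2.61% and 3.91% for miR-183-5p over NC, and 2.15% and 5.85% for miR-182-5p over miR-183-5p. The counts of called immediate early genes were thus at or below what the shares over all genes would give in a group of this size.

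The split of all genes into higher and lower depended on the scaling. For miR-182-5p over NC it was 20.7% higher and 26.7% lower with TMM, 20.6% and 27.0% with median-of-ratios factors, and 28.4% and 15.5% without mitochondrially encoded genes. For miR-182-5p over miR-183-5p it was 13.7% and 16.4% with TMM and 13.8% and 16.2% with median-of-ratios factors, and for miR-183-5p over NC it was 14.1% and 8.32% without mitochondrially encoded genes.

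The medians lay close to those of all genes. The median ratio of the 10 genes to NC was 0.963 in the miR-182-5p library, where the median over all measured genes was 0.993, and 0.945 in the miR-183-5p library, where it was 0.977. For miR-182-5p over miR-183-5p the median was 1.03, against 1.02 for all genes. Regardless of direction, the 10 genes differed from NC by a median of 0.14 on the log2 scale in the miR-182-5p library, against 0.23 for all genes, and by 0.10 against 0.14 in the miR-183-5p library. Between miR-182-5p and miR-183-5p these medians were 0.09 for the 10 genes and 0.16 for all genes. Over the 3 libraries the highest level of a gene was 1.12 times its lowest in the median of the 10 genes and 1.21 times in the median of all genes. All measured genes include many with fewer counts than these 10, whose ratios vary more from counting alone.

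**Figure D4:**
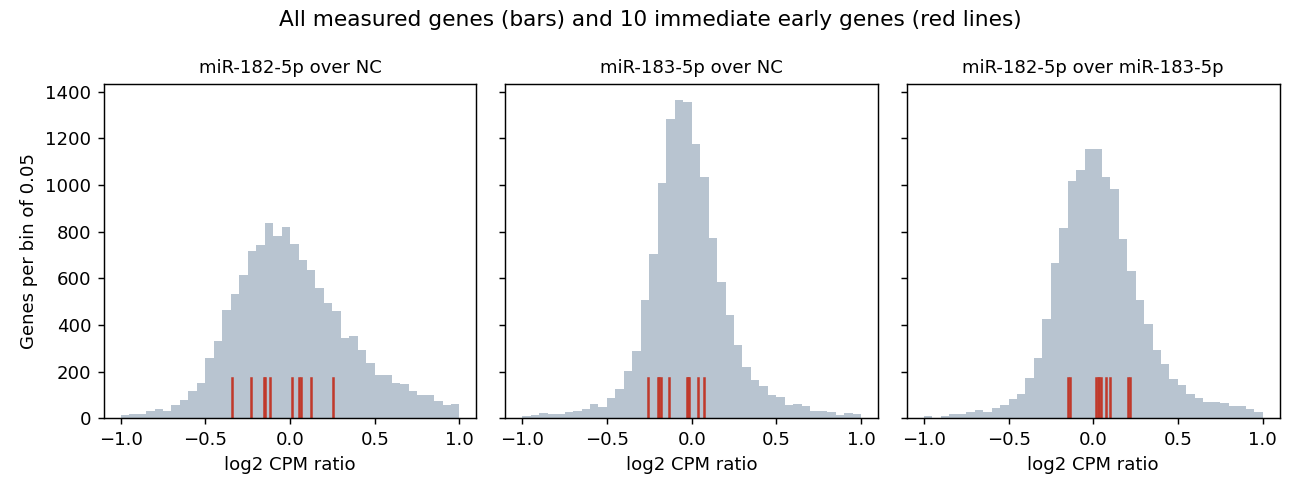
Numbers of measured genes per bin of 0.05 in the log2 CPM ratio for 3 comparisons (grey bars, range limited to plus or minus 1), with the 10 immediate early genes as red lines. The 10 genes lie within the body of each distribution, from -0.34 (FOSL1) to 0.26 (JUNB) for miR-182-5p over NC.

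Direction against NC was mixed for miR-182-5p and, when scaled to library totals, mostly lower for miR-183-5p. In the miR-182-5p library 5 of the 10 ratios were above 1, those of EGR1, FOSL2, JUNB, IER2 and IER3, and 5 below, where 48.8% of all genes were above. Of these, EGR1, FOSL2 and JUNB had intervals above 1, and FOSL1, JUN and JUND had intervals below 1. In the miR-183-5p library 2 ratios were above 1, those of EGR1 and JUNB, where 43.1% of all genes were above. Without mitochondrially encoded genes in the library size, FOSL2 at 1.01, ATF3 at 1.02 and IER2 at 1.01 joined them above 1. When scaled to library totals, FOS, FOSL1, JUN, JUND and IER3 had intervals below 1 in the miR-183-5p library, and none had an interval above 1. Between the microRNA libraries FOSL2 at 1.07 (1.03 to 1.11), JUNB at 1.16 (1.11 to 1.22), IER2 at 1.05 (1.01 to 1.096) and IER3 at 1.15 (1.09 to 1.22) were higher with miR-182-5p by their intervals, and FOSL1 was lower. The directions of FOSL2 and ATF3 (miR-183-5p over NC), IER2 (both microRNAs over NC), IER3 (miR-182-5p over NC), and EGR1, FOS, JUN and JUND (miR-182-5p over miR-183-5p) turned round under at least 1 other scaling.

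Genes with the pattern most like that of FOSL1, the gene with the widest range, were sought by the distance between the 2 log2 ratios to NC, over 3 libraries and 11991 genes with at least 5 CPM in a library. The nearest 5 were GNB2, ZNRD2, TMEM99, MARCHF8 and TMEM218, each at 0.785 to 0.790 times NC with miR-182-5p and 0.869 to 0.873 with miR-183-5p. As many as 274 genes lay within 0.05 of FOSL1 on this log2 scale, so with 3 libraries the pattern marks out no small group.

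Other genes of the pathway were taken from lists. Strand was not given for the counting, and several named genes overlap a gene on the opposite strand, among them FOSB, NAB2, the MAF genes, ERBB2, ITGA2 and PLAU, so reads of the overlap cannot be told apart. Of 13 other partners of the AP-1 family, 8 were measured, and in the miR-182-5p library 1 was at least 1.2-fold higher and 0 lower. That gene was ATF7, which pairs with JUN proteins, at 1.23 (1.18 to 1.29); it overlaps a read-through gene on its strand, so its reads are uncertain. The others were FOSB at 1.09, the FOS antagonist JDP2 at 1.06, ATF2 at 1.05, the small MAF proteins MAFF at 1.102, MAFG at 1.14 and MAFK at 1.17, and the stress factor ATF4 at 0.870 (0.855 to 0.886). With miR-183-5p 0 passed in either direction, from ATF2 at 0.908 to ATF7 at 1.12. Over all genes 24.3% were higher and 20.5% lower with miR-182-5p, and 11.5% and 11.3% with miR-183-5p. FOSB, the remaining FOS subunit, lay just above the filter, at 1.27 FPKM with miR-182-5p and 1.15 FPKM in NC.

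The EGR relatives were at low levels. EGR2 had 85 counts with miR-182-5p, 35 with miR-183-5p and 34 in NC, all below an FPKM of 1. EGR3 and EGR4 were also below it in every library, EGR3 with 0 counts in both the miR-182-5p and the NC library. The corepressors of EGR proteins were measured: NAB1 at 1.11 times NC and NAB2 at 1.13 in the miR-182-5p library, and at 0.971 and 1.03 in the miR-183-5p library.

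Upstream of FOS and EGR1, SRF and its cofactors ran both ways in the miR-182-5p library. Of 6 measured, 2 were at least 1.2-fold higher and 2 lower, where 24.3% and 20.5% of all genes were. ELK4 was at 1.403 times NC (1.34 to 1.47) and the actin-regulated cofactor MRTFB at 1.24 (1.17 to 1.305), whereas ELK3 was at 0.754 (0.707 to 0.804) and ELK1 at 0.824 (0.786 to 0.863). SRF itself was at 0.896 (0.853 to 0.941) and MRTFA at 0.901. With miR-183-5p none of the 6 passed in either direction, from MRTFA at 0.871 to ELK4 at 1.08, with SRF at 1.05 (1.006 to 1.104). Over all genes 11.5% were higher and 11.3% lower in that library. MRTFA and MRTFB overlap other genes on their strand, and ELK3 and ELK4 on the opposite strand, so part of their reads is uncertain.

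Of 20 measured receptors, RAS and MAP kinase genes, 1 was higher and 5 lower by the 1.2-fold rule in the miR-182-5p library. The receptor ERBB2 was at 1.32 (1.27 to 1.37), the ribosomal S6 kinase RPS6KA1 at 0.728 (0.693 to 0.764), the p38 activator MAP2K3 at 0.752 and the ERK activator MAP2K2 at 0.779. For miR-183-5p 2 were lower and 0 higher: the JNK activator MAP2K4 at 0.757 (0.695 to 0.824) and MAP2K2 at 0.802. The share of 5 in 20 lay near the 20.5% of all genes that were lower with miR-182-5p, where 24.3% were higher. With miR-183-5p 11.3% of all genes were lower and 11.5% higher.

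Of 12 measured feedback genes of the MAP kinases, 2 were higher and 2 lower in the miR-182-5p library, against 24.3% and 20.5% of all genes. The ERK phosphatase DUSP6 was at 1.201 (1.16 to 1.25) and SPRY1, an inhibitor of receptor signalling, at 1.26, while the nuclear phosphatase DUSP2 was at 0.713 (0.635 to 0.799) and DUSP7 at 0.764. With miR-183-5p DUSP2 was again the one below the limit, at 0.771, and 0 were above it. Over all genes 11.3% were lower and 11.5% higher in that library.

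Among 33 other immediate early genes measured for miR-182-5p, 4 were higher and 1 lower, smaller shares than the 24.3% and 20.5% over all genes. These included the NF-kB cofactor NFKBIZ at 1.60 (1.53 to 1.68), GADD45B at 1.64, the kinase SIK1 at 1.34 and, lower, the growth regulator MYC at 0.827 (0.808 to 0.847). GADD45B and SIK1 were below an FPKM of 1 in the NC library and entered the count through the microRNA library, where they were higher. For miR-183-5p 2 of 32 were higher, NFKBIZ at 1.303 and GADD45B at 1.58, and 4 lower (11.5% and 11.3% of all genes), including the matrix gene CCN2 at 0.676 (0.550 to 0.830), GADD45A at 0.781 and CSRNP1 at 0.783. NFKBIZ overlaps NXPE3 on its strand, so its reads are uncertain. The median ratio of this list was 1.05 for miR-182-5p and 0.973 for miR-183-5p.

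Of 18 genes reported as AP-1 targets, 12 were measured against NC, and their directions did not run one way. In the miR-182-5p library the growth factor VEGFA at 1.32, the integrin ITGA2 at 1.22 and the matrix protein SPP1 at 1.22 were the 3 higher ones of 12, a share near the 24.3% over all genes. The urokinase PLAU at 0.528 (0.433 to 0.641) and HMOX1, a heme-degrading enzyme, at 0.737 (0.639 to 0.849) were the 2 lower ones, where 20.5% of all genes were lower. For miR-183-5p 0 were higher and the same 2 lower, PLAU at 0.609 and HMOX1 at 0.761. Of all genes 11.5% were higher and 11.3% lower there. PLAU reached an FPKM of 1 in the NC library alone, so it entered the count through the library where it is high, as did CCN2 in its list for miR-183-5p. PLAU had 157 counts with miR-182-5p, 198 with miR-183-5p and 311 in NC. The matrix metalloproteinases MMP1, MMP3, MMP9, MMP10 and MMP13 stayed below an FPKM of 1 in all 3 libraries, and MMP7 was at 1.03 and 1.01 times NC for miR-182-5p and miR-183-5p.

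Of 10 stress response genes listed with ATF3, 0 were higher and 2 lower in the miR-182-5p library, where 24.3% and 20.5% of all genes were. The lower ones included the glutathione-degrading enzyme CHAC1 at 0.715 (0.629 to 0.811). CHAC1 was also the 1 lower gene in the miR-183-5p library, at 0.752 (0.666 to 0.849). In that library 11.5% of all genes were higher and 11.3% lower. Of 7 genes of AP-1 protein turnover, the JUN ubiquitin ligase component COP1 was lower in the miR-182-5p library at 0.780 (0.737 to 0.826) and DET1 higher in the miR-183-5p library at 1.73 (1.56 to 1.92). FBXW7, which marks JUN for destruction, was at 1.19 and 1.12 times NC for miR-182-5p and miR-183-5p. COP1 and DET1 overlap another gene on the same strand, and no other gene of the 7 passed 1.2-fold against NC. The shares over all genes just given apply to these counts as well.

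The list medians lay on either side of those of all genes, which were 0.993 for miR-182-5p over NC and 0.977 for miR-183-5p over NC. For miR-182-5p they were 1.09 for the AP-1 partners, 1.06 for the MAP kinase feedback genes and 1.03 for the AP-1 targets. Lower medians for miR-182-5p were 0.956 for the RAS and MAP kinase genes and 0.956 for AP-1 turnover. Those of the genes listed with ATF3 and of SRF and its cofactors were 0.921 and 0.898. For miR-183-5p the same 7 medians lay between 0.9499, for the feedback genes, and 1.04, for the AP-1 targets.

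The transcripts searched for the 10 genes differ in exon number and in the elements of their 3' UTRs. In the transcript with the longest 3' UTR, JUN, JUNB, JUND and IER3 had 1 exon and the others 2 or 4. Other transcripts of a gene may have other exon counts and UTRs and were not used. The exon counts and densities therefore hold for the chosen transcript alone. The pentamer ATTTA, written as DNA, occurred 6.64 times per kilobase in IER3 and 6.20 times in FOS, denser than in 96.6% and 95.6% of all 3' UTRs searched. JUNB had 4.0 per kilobase, FOSL1 1.19 and EGR1 0.81, and IER2 had none, where the median gene had 1.62. The nonamer TTATTTATT was present in FOS and FOSL2, and in 8.97% of all genes. Of the 2 genes with the densest pentamers, IER3 was at 1.01 and 0.873 times NC and FOS at 0.921 and 0.912, for miR-182-5p and miR-183-5p, and their counting intervals overlap in both comparisons.

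Promoters from 250 bases before to 50 after the start were matched for 8 of the 10 genes (RefSeq, GRCh38.p14), ATF3 with 2 starts. They were searched on both strands for the AP-1 motif TGANTCA, the cyclic AMP response element (CRE) TGACGTCA, its core TGACG, which lies within it, the CArG box bound by SRF, and the EGR1 motif GCGTGGGCG. The CArG box was found in 1 of the 8, EGR1, which held 2 of them, and in 1.29% of all 35116 promoters. Sites further from the start were not searched, in FOS or any other gene. The complete CRE was found in JUND and in 1.85% of all promoters, and the AP-1 motif in FOSL2 and in 7.71%. The CRE core was found in 7 of the 8, all but the ATF3 windows searched, and in 24.6% of all promoters. The EGR1 motif was found in none of the 8 and in 0.795% of all promoters. The TATA box, searched as TATAAA anywhere in the window, was found in ATF3, FOS and JUNB, and in 11.5% of all promoters. The match began 33 bases before the start in FOS and 31 in JUNB, but 230 in ATF3. The ATF3 match, at chr1:212614788-212614793, lies inside the ATF3 span given above, as does the start it precedes. The absence of a CRE core in ATF3 therefore holds for the windows searched alone. Over the 13092 promoters of measured genes alone the shares were 1.0999% for the CArG box, 2.84% for the CRE, 5.21% for the AP-1 motif, 32.6% for the CRE core, 1.28% for the EGR1 motif and 6.07% for the TATA box. The stretches with the CArG boxes, the CRE and the AP-1 motif, each found in 1 of the 8 genes, are printed with the motif in capitals, and FOS is added as an example of the core that 7 share. They lie at chr5:138465365-138465414 (plus strand, 114 to 65 bases before the start), at chr19:18281815-18281822 (minus strand, from 200 bases before it), at chr2:28392862-28392868 (plus strand, from base 5 of the transcript) and at chr14:75278764-75278768 (plus strand, from 64 bases before the start). Coordinates after the first are those of the motif. Base 5 in FOSL2 is counted from the RefSeq start used, which lies inside the FOSL2 span given above.
EGR1 CArG boxes: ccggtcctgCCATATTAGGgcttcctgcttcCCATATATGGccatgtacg
JUND CRE: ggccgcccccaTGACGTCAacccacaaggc
FOSL2 AP-1 motif: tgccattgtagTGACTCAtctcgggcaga
FOS CRE core: ggttgagcccgTGACGtttacactcat

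The genes with these motifs showed no common direction. EGR1 and FOSL2 were at 1.09 and 1.05 times NC with miR-182-5p, and JUND and FOS at 0.852 and 0.921. A motif match is a description of the letters, and binding was not measured.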

How the data were processed

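Per the file headers, 1 table gave gene counts and FPKM for 3 RNA sequencing libraries. The deposited counts are whole numbers of reads per gene that the authors made. Beside them the authors deposited FPKM, with no account of the computation. The submitters' processing notes name cutadapt 1.9 and FastQC and give the build as GRCm38, a mouse assembly, although the identifiers are human. Of 30085 identifiers shared with GENCODE 29 (GRCh38), 99.98% overlap the gene's span there and 59.5% have the same ends. For the aligner, counter, strand setting and annotation release, the choice was not given in the sources used here.

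CPM are counts over the library total. Ratio intervals are exact 95% Clopper-Pearson intervals given the sum of both counts, and FPKM intervals are Poisson, both for counting error only. With 1 library a group there is no replicate check and no p-value. The members and lists, and the rule of 1.2-fold, were chosen with earlier results of these data known. All members are named, with up to 3 genes at each end of each list by ratio, all measured AP-1 and EGR relatives, and the 5 genes nearest to the widest-ranging member. EGR2, EGR3, EGR4 and the MMP genes are named outside this rule, after their values were seen. A gene that the rule would name is not reported here. The 3' UTR is the longest per gene in GENCODE 29 basic transcripts, and the AUUUA search was added after the values were seen. Intervals and calls were run on simulated libraries that hold counting error alone. That step cannot show how far repeat libraries would differ. Tools were Python 3.11.15, scipy 1.17.1, R 4.3.3 and edgeR 4.0.16, used for TMM factors alone. Other settings were TMM, median-of-ratios factors, library size without mitochondrially encoded genes, log2 of FPKM plus 1 or 0.1, no filter, an FPKM of at least 5, and a fold of 1.5.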

Additional observations from a re-analysis of the deposited data

How the results depend on the processing

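No paired analysis was possible because each group has 1 library, and for the same reason no library could be left out. The miR-182-5p over NC results moved: the number of genes at least 1.2-fold lower, 1 as reported, was 2 (FOSL1 and JUND) with TMM or median-of-ratios factors and 0 at 1.5-fold. The number at least 1.2-fold higher, 0 as reported, was 1 (JUNB) without mitochondrially encoded genes, with log2 of FPKM plus 1 or plus 0.1, and relative to the median of all genes, a setting chosen after seeing the data. The median log2 ratio, -0.05 as reported, was 0.031 when an FPKM of at least 5 was required, which left 8 genes by dropping FOS and ATF3, and 0.0016 without mitochondrially encoded genes, but -0.113 with TMM and -0.116 with median-of-ratios factors. For miR-183-5p over NC it was -0.08 as reported and -0.037 without mitochondrially encoded genes. The cause of the other shifts was not tested. The counts for miR-183-5p over NC and miR-182-5p over miR-183-5p stayed at 0 under every setting run. The last median, 0.04, was -0.03 with either TMM or median-of-ratios factors. FOSL1 over NC ranged from 0.755 to 0.819 in the miR-182-5p library and from 0.873 to 0.8998 in the miR-183-5p library. Of 30 gene ratios, 6 left their counting interval with TMM, 7 with median-of-ratios factors and 2 without mitochondrially encoded genes. Depth limits ATF3 most, with 651 to 782 counts, and JUN least, with 11470 to 13301.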
